A study of Mus musculus with 12 samples.

Results

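The amygdala transcripts of Atn1, its paralog Rere and 6 further genes whose human counterparts carry a disease-causing glutamine repeat (Atxn1, Atxn2, Atxn3, Atxn7, Htt and Tbp) were followed from mouse to mouse. These 8 genes were found by matching their symbols in GENCODE M21 to the Ensembl identifiers of the count table, and they are 8 of its 47729 genes. Atn1 was chosen by its measured values, since it stood in a gene list drawn from a comparison of the anxiety groups in these same mice, and the rest were added as its paralog and as genes of related disease. The difference between anxiety groups is therefore given for all 8 as a description, with counts of called genes only beside the share of all genes, and tests are read only from the behavior measures, with a limit given there.

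The animals were age-matched female C57/BL6 mice, an inbred strain, and no treatment or mutation set them apart. Each mouse was run in the elevated plus maze at 9 weeks, the light/dark box at 10 weeks and a social interaction test (SIT) in a three-chamber arena at 11 weeks, and both amygdalae were then taken for 1 mRNA library per mouse. The sample labels place 11 of the 12 mice in a predicted anxiety state, with 3 less anxious (mice 3, 7 and 12), 4 anxious (mice 1, 4, 8 and 11) and 4 more anxious mice (mice 2, 6, 9 and 10), and mouse 5 has no state. The states were set in the study by the second principal component of the same RNA counts, so a group is a range of expression scores and not a treatment, and a difference between groups is not independent of the genes that made them. A second component was also computed here from the deposited counts, and it need not be the study's own. It did not order the mice fully by label. More anxious mouse 6 scored 0.32, between anxious mice 11 (-2.98) and 8 (4.39). The labels and the behavior did not always go together: mouse 6, labelled more anxious, had the highest time in the light (46.6%), distance in the light (41.9%) and open-arm time (29.2%) of the 11 mice.

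Each of the human counterparts other than that of Rere holds a run of CAG codons that encodes glutamine, and an expanded run causes an inherited neurodegenerative disease: dentatorubral-pallidoluysian atrophy for ATN1, Huntington disease for HTT and a spinocerebellar ataxia for each of the others. The proteins have unrelated everyday roles. Atrophin-1 (Atn1) and Rere are nuclear corepressors, ataxin-1 represses transcription together with Capicua, ataxin-2 binds RNA and sits in stress granules, ataxin-3 removes ubiquitin chains, ataxin-7 belongs to the SAGA coactivator, huntingtin scaffolds vesicle transport and TBP is the TATA-binding protein. The mouse genes carry far shorter repeats than disease alleles, and no allele was changed in these mice, so the data bear on the transcript level of the normal genes.

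The longest unbroken in-frame run of glutamine codons in the transcript with the longest coding sequence is shown for 7 of the genes, because such repeats join most of the set. The coding strand is written 5′ to 3′ from the GENCODE M21 transcripts (GRCm38, the mm10 assembly), with the run (CAG or CAA codons) in capitals and 15 flanking bases on each side in lower case.
Tbp, chr17:15504376-15504444, plus strand, exon 4 of 9: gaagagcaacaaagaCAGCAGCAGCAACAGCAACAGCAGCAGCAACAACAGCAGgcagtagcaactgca
Htt, chr5:34761943-34761993, plus strand, exon 1 of 67: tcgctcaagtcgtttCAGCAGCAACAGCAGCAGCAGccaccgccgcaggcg
Atxn3, run at chr12:101926563-101926580, minus strand, flank crossing an exon junction: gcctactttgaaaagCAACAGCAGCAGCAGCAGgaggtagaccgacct
Atxn7, chr14:14013141-14013185, plus strand, exon 2 of 13: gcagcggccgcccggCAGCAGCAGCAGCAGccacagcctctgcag
Rere, chr4:150614633-150614671, plus strand, exon 18 of 23: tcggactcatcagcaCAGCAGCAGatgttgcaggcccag
Atxn1, chr13:45567065-45567103, minus strand, exon 7 of 8: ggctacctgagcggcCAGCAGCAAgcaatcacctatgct
Atxn2, chr5:121810931-121810969, plus strand, exon 22 of 25: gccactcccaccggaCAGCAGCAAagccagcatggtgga
The run held 13 codons in Tbp, 7 in Htt, 6 in Atxn3, 5 in Atxn7 and 3 in each of Rere, Atxn1 and Atxn2. Tbp, with the longest run, held the most CAA codons, 4 beside 9 CAG codons. Glutamine codons were not confined to these runs: they made up 82 of 1558 codons in Rere, 80 of 1286 in Atxn2 and 173 of 3120 in Htt. For Rere, Atxn1 and Atxn2 the run shown is only the longest found, and whether it sits where the human repeat does was not examined.

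The genes lie on 7 chromosomes, with Atxn2 and Htt both on chromosome 5. Atn1 (ENSMUSG00000004263) spans chr6:124742544-124756524 on the minus strand, has 4600 exonic bases, the fewest of the set, and its longest transcript has a GC content of 62.0%, the highest. Rere (ENSMUSG00000039852) spans chr4:150281646-150621966 on the plus strand, with 8528 exonic bases and 54.9% GC. Htt (ENSMUSG00000029104, chr5:34761740-34912534, plus strand) has 51.1% GC, and Atxn1 (ENSMUSG00000046876, chr13:45549755-45965008, minus strand) has 47.9%. The remaining genes are poorer in GC: Atxn7 (ENSMUSG00000021738, chr14:13961440-14107302, plus strand) at 46.5%, Tbp (ENSMUSG00000014767, chr17:15499888-15528379, plus strand) at 42.7%, Atxn2 (ENSMUSG00000042605, chr5:121711337-121816493, plus strand) at 42.6% and Atxn3 (ENSMUSG00000021189, chr12:101918901-101958246, minus strand) at 40.6%. Atn1 overlaps the read-through gene Gm45234 on the same strand, whose estimated count was between 0 and 44 in the 11 mice, at most 1.10% of the sum of both genes. Of other protein-coding genes, Sh2b3 lies antisense to Atxn2, Gmpr to Atxn1, Thoc7 to Atxn7 and Pdcd2 to Tbp, and Msantd1 overlaps Htt on the same strand. The kit was stranded, but whether the counting used the strand is not given in the sources used here, so reads of these overlapping pairs could have been divided differently.

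The libraries were of like depth, with 31745630 to 45142355 estimated counts in the 11 mice. Markers of basolateral amygdala (Rspo2, Slc17a7, Neurod6 and Fezf2) summed to 720 to 1478 CPM (counts scaled to library size). Those of central amygdala (Prkcd, Sst, Crh and Tac2) summed to 211 to 489 CPM. The first sum was mostly Slc17a7 (mean 989 CPM), which is also in the neuron list, and the second mostly Sst (mean 323 CPM). The other genes of both lists had means from 5.48 CPM (Crh) to 30.1 CPM (Neurod6). The sums therefore do not show how much of each nucleus was sampled. Across the 10 marker lists, Folr1 of choroid plexus was the only gene under 1 CPM in every mouse.

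Atn1 had the highest mean level per length of the 8 genes, whichever gene length was used. In CPM per kilobase of exon, Atn1 had a mean of 36.5 (range 16.2 to 52.5, n = 11) and Rere 13.8 (11.9 to 17.0). The next were Atxn2 at 6.69 (4.22 to 9.0), Htt at 5.62 (4.91 to 6.12), Atxn1 at 5.61 (4.84 to 6.02) and Atxn3 at 5.23 (4.18 to 6.86), whose ranges over mice overlapped one another. The lowest levels per kilobase were those of Atxn7 at 3.41 (3.16 to 3.77) and Tbp at 2.33 (2.16 to 2.55). The lowest Atn1 value fell inside the Rere range, while the ranges of Rere and Atxn2, of Atxn3 and Atxn7 and of Atxn7 and Tbp were apart. With the length of the transcript that has the longest coding sequence, a choice added after seeing the data, the Atn1 mean was still highest at 37.9 CPM per kilobase (16.8 to 54.5). Atxn2 then followed at 23.5, Atxn1 at 20.02, Tbp at 16.7, Rere at 15.2, Htt at 10.4, Atxn7 at 9.21 and Atxn3 at 5.28, so the order below Atn1 depended on the length. With this length the lowest Atn1 value fell inside the ranges of Atxn2 (14.8 to 31.6), Tbp (15.5 to 18.3) and Rere (13.1 to 18.7). It lay below the range of Atxn1 (17.3 to 21.5).

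**Figure D1:**
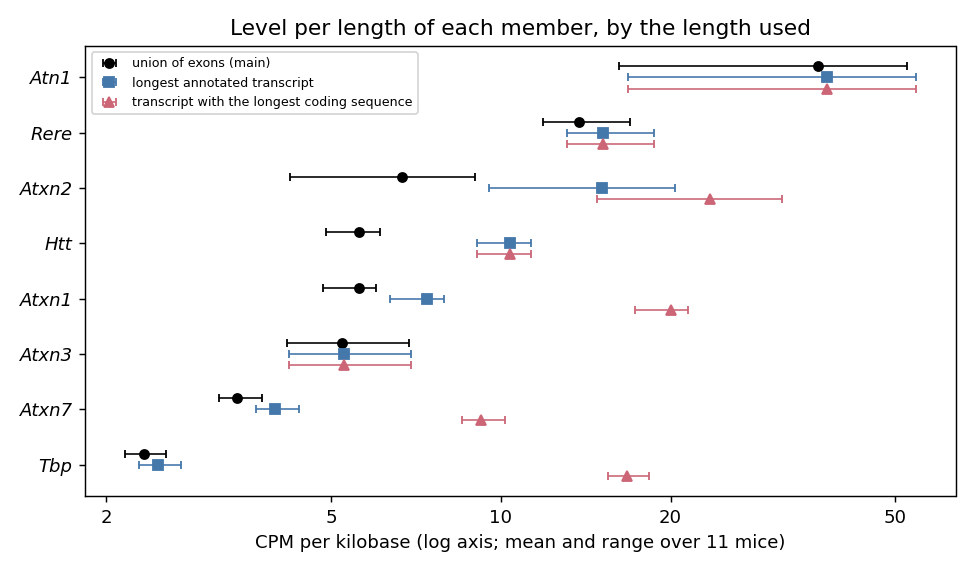
Level of each gene in CPM per kilobase on a log axis, with points for the mean and bars for the range over 11 mice, under 3 gene lengths. The Atn1 mean stands highest under each of them, at 36.5 to 37.9 CPM per kilobase, and the Tbp mean moves from 2.33 with the union of exons to 16.7 with its coding transcript.

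Atn1 was the most variable gene of the set between mice, and Atxn2 came next. In less anxious mice Atn1 was at 74.4 CPM in mouse 3, 201 in mouse 7 and 121 in mouse 12. In anxious mice it was at 145 CPM in mouse 1, 176 in mouse 4, 241 in mouse 8 and 119 in mouse 11. In more anxious mice it was at 226 CPM in mouse 2, 233 in mouse 6, 144 in mouse 9 and 165 in mouse 10. Mouse 3 was the lowest and mouse 8 the highest, and the groups overlapped, since mouse 7 of the less anxious group lay above mice 9 and 10 of the more anxious group. In bulk tissue, fewer cells that express a gene and less RNA per cell cannot be told apart.

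The paralog Rere, which shares the atrophin region with Atn1, spread over a narrower range. It was at 102, 136 and 105 CPM in mice 3, 7 and 12, at 123, 107, 108 and 133 CPM in mice 1, 4, 8 and 11, and at 145, 117, 115 and 101 CPM in mice 2, 6, 9 and 10. The highest mouse was mouse 2 and the lowest mouse 10, both more anxious, and the groups overlapped. The ratio of Atn1 to Rere CPM, which takes no account of gene length, ran from 0.728 in mouse 3 to 2.23 in mouse 8.

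Atxn2, the RNA-binding ataxin, had its extremes in the same mice as Atn1. Less anxious mice 3, 7 and 12 had 66.2, 107 and 97.5 CPM. Anxious mice 1, 4, 8 and 11 had 119, 125, 141 and 83.5 CPM. More anxious mice 2, 6, 9 and 10 had 129, 109.9, 87.9 and 87.6 CPM. Mouse 3 was again lowest and mouse 8 highest, and the groups overlapped.

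Of the remaining 5 genes, Atxn1, Atxn7, Htt and Tbp varied least. Atxn3, the deubiquitinase, ran from 22.6 CPM in mouse 9 to 37.1 in mouse 11, with group means of 28.7 ± 3.13 (SD, n = 3), 30.8 ± 5.43 (n = 4) and 25.5 ± 2.80 (n = 4) in less anxious, anxious and more anxious mice. Htt had group means of 143 ± 8.34, 135 ± 11.9 and 136 ± 6.82 CPM in the same order, and Atxn1 had 81.7 ± 2.94, 76.9 ± 7.59 and 76.7 ± 2.67 CPM. Atxn7, the SAGA subunit, had 26.9 ± 1.69, 26.9 ± 1.17 and 27.8 ± 2.11 CPM, and Tbp had 32.0 ± 1.54, 31.5 ± 2.12 and 31.4 ± 2.44 CPM. In Atxn1 and Atxn3 the more anxious mean was lower than the less anxious mean by more than either SD while the mice overlapped, and in Htt, Atxn7 and Tbp these means differed by less than the larger SD.

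**Figure D2:**
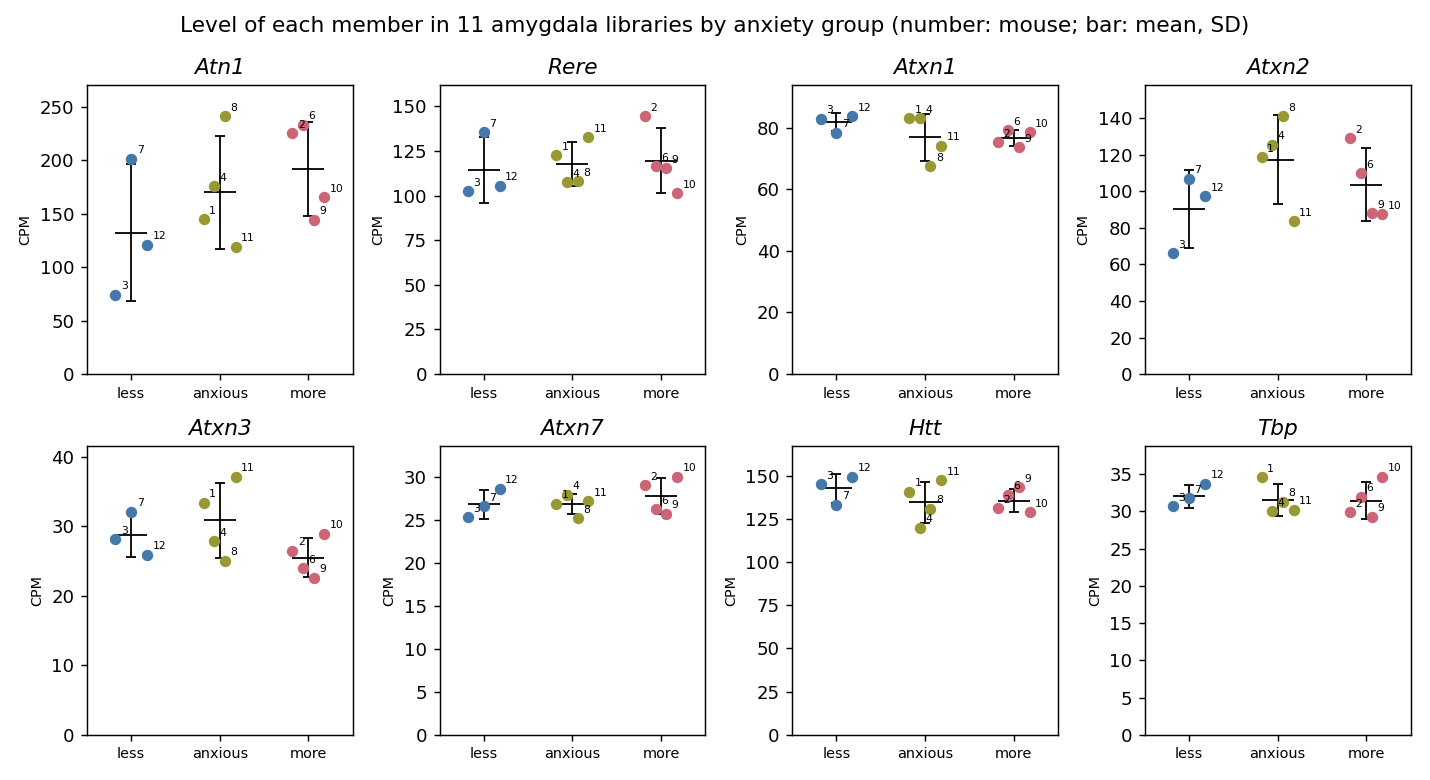
CPM of each gene in the 11 mice (points, numbered by mouse) by anxiety group, with the mean and SD of the group as a bar. The groups overlap in all 8 panels; Atn1 runs from 74.4 CPM in mouse 3 to 241 in mouse 8, while Atxn7 and Tbp stay within a narrow band.

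The highest Atn1 level was 3.24 times the lowest and the coefficient of variation (CV) over the 11 mice was 31.9%, above the CV of 97.4% of the 7211 genes with a mean of 20 to 200 CPM, whose median CV was 11.4%. Atxn2 had a CV of 21.6% (above 90.8% of those genes), Atxn3 15.4% and Rere 12.48%. The CV was 6.63% in Htt, 6.57% in Atxn1, 6.06% in Tbp and 5.86% in Atxn7, each above that of fewer than 9% of those genes. Counting error alone would give a CV of 1.25% in Atn1 and at most 3.12% in any of the 8. The libraries also differed in base composition. The slope of log2 level on gene GC content over 15793 genes, in log2 units per 10 percentage points, was lowest in mouse 3 (-0.19), and it was 0.08 in mouse 8 and 0.14, the highest, in mouse 9. The part of base composition in the Atn1 spread was not tested.

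Between more and less anxious mice, Atn1 was higher by 0.45 on the log2 scale (SE 0.11) and higher by 0.21 (SE 0.11) in anxious than in less anxious mice, in an edgeR fit over all genes with the first principal component (PC1) as a covariate. The group means were 132 ± 64.2 CPM (SD, n = 3) in less anxious, 170 ± 52.8 (n = 4) in anxious and 192 ± 43.9 (n = 4) in more anxious mice. Without the covariate the Atn1 difference was 0.54 with an SE of 0.35, and with an offset for GC content it was 0.20 (SE 0.12). Leaving out each mouse in turn gave 0.33, without mouse 9, to 0.52, without mouse 12.

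The other 7 genes differed less than Atn1 in this contrast. Atxn2 was higher by 0.12 (SE 0.13) in more than in less anxious mice, and by 0.27 (SE 0.14) in anxious than in less anxious mice. Rere and Atxn7 had log2 differences between more and less anxious mice of 0.05 each (SE 0.14 and 0.10). Atxn3 was at -0.15 (SE 0.14), Atxn1 at -0.08 (SE 0.09), Htt at -0.05 (SE 0.09) and Tbp at -0.03 (SE 0.10). Values above 0 thus occurred in 4 of 8 genes, beside 50.5% of all 26963 genes tested, and the median of the 8 was 0.01 beside 0.0037 for all genes. The sign changed when a single mouse was left out in Rere, Atxn2, Atxn3, Atxn7 and Tbp, and for Tbp also with the GC offset (0.04). With mouse 7 left out, Atxn3 went from -0.15 to 0.13. With the GC offset Atxn2 went from 0.12 to 0.19 (SE 0.13), close to Atn1 at 0.20 (SE 0.12) in that fit.

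**Figure D3:**
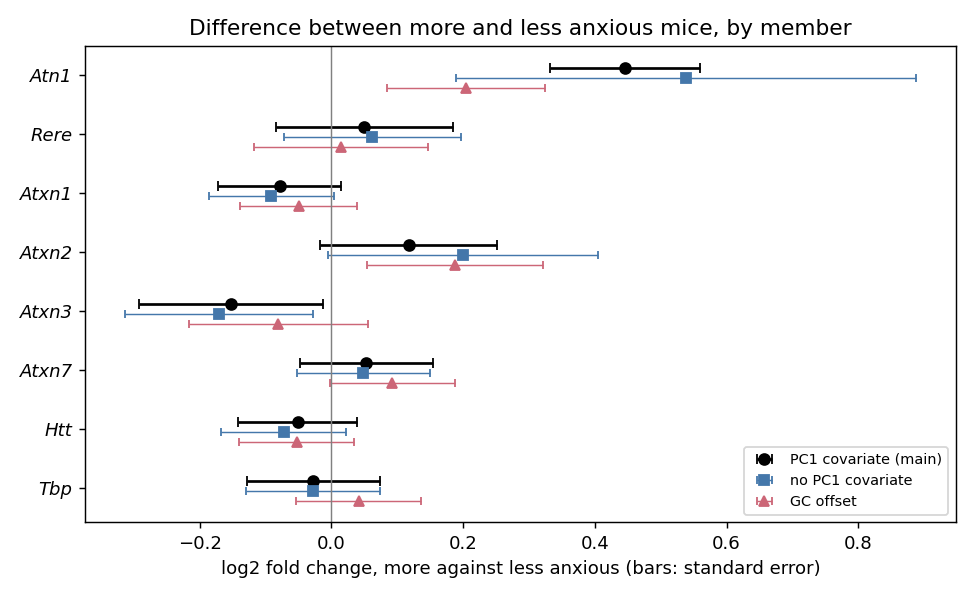
Log2 difference between more and less anxious mice for each gene, with standard errors as bars, from the fit with the PC1 covariate, without it, and with a GC offset. Atn1 lies at 0.45, 0.54 and 0.20 in the 3 fits, and the other 7 lie between -0.17 and 0.20.

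Of the 8 genes, 0 had an adjusted p under 0.05 across the groups in edgeR (0.00742% of all genes did) and 0 in DESeq2's likelihood ratio test (0.594% did), while 1, Atn1, had an unadjusted edgeR p under 0.05 (6.35% did). Atn1 no longer passed that threshold with the GC offset, without PC1, or without mouse 7 or mouse 9. Its adjusted p was 0.525 in edgeR and 0.0803 in DESeq2's likelihood ratio test. The study used the latter kind of test, with its own PC1, for the list that held Atn1. Here PC1 was computed anew from the deposited counts, so the fit need not be the study's own, and Atn1 fell short of the threshold. In 0 of 8 genes were the less and more anxious mice apart without overlap, beside 10% of the 15891 genes with a mean of at least 1 CPM. As Atn1 was chosen through this contrast, nothing is read from these counts or p-values. Of the 10 marker lists, the summed levels of 3 were apart between less and more anxious mice, all of them lower in more anxious mice. The summed CPM of 5 astrocyte markers was 1063 to 1298 in less anxious and 795 to 1011 in more anxious mice, and that of 4 endothelial markers 90.8 to 132 and 62.9 to 82.8. That of 4 pituitary markers was 2.14 to 3.67 in less anxious and 1.11 to 1.63 in more anxious mice, and 1.99 to 56.7 in anxious mice. Gene by gene, 1 of 5 astrocyte, 0 of 4 endothelial and 2 of 4 pituitary markers were lower without overlap, beside the 10% above in either direction. The pituitary marker Pomc went the other way, at 0.834 to 1.03 CPM in less anxious and 1.02 to 1.61 in more anxious mice. The sums of the other 7 lists overlapped, and the neuron markers were at 4354 to 4695 CPM in less anxious and 4538 to 5588 in more anxious mice. The part of these markers in the Atn1 difference was not tested.

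Atn1 and Atxn2 varied together over the 11 mice, with the highest correlation of any pair of the 8. Their Pearson r of log2 CPM was 0.84 and Spearman's rho was 0.82. It was 0.71 without mouse 3, 0.62 without mice 3 and 8, and 0.89 after correction for GC content (the first and the last were chosen after seeing the data). The correlations are descriptions over 11 libraries that share depth and base composition between genes. Of the 28 pairs, 18 were above 0, and only Atn1 with Atxn2 was over 0.5. Other pairs passed 0.5 in the alternatives: without mouse 3 Atxn1 with Atxn7 was at 0.502, without mice 3 and 8 Atxn1 with Tbp reached 0.63, above Atn1 with Atxn2, and after GC correction Rere with Atxn3 and Atn1 with Tbp were each at 0.57. The paralogs Atn1 and Rere had an r of 0.35. Htt ran opposite to both, with an r of -0.61 with Atn1 and -0.59 with Atxn2, while its own CV was only 6.63%.

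**Figure D4:**
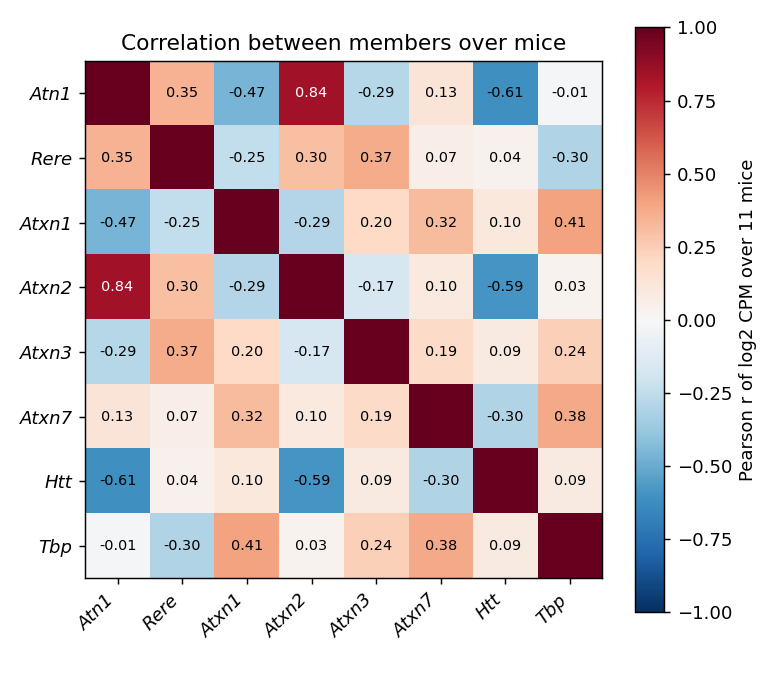
Pearson r of log2 CPM between the 8 genes over 11 mice, from -1 (blue) to 1 (red). Atn1 and Atxn2 form the one strongly positive pair at 0.84, and Htt is negative with both, at -0.61 and -0.59.

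The genes whose levels were most like that of Atn1 over the 11 mice, among 15890 genes with a mean of at least 1 CPM, were Gm13772 (r = 0.97), ENSMUSG00000089855 (0.97, with no name in GENCODE M21), Tmem150a (0.97), Ldb1 (0.97), the pseudogene Rpl17-ps5 (0.97), Zfpl1 (0.97), Rogdi (0.96), Zswim4 (0.95), Phb2 (0.95) and Slc25a28 (0.95). Ldb1 encodes a LIM-domain-binding cofactor, Phb2 a prohibitin of the inner mitochondrial membrane and Slc25a28 the iron carrier mitoferrin. The least like were Mgea5 (-0.96), the enzyme that removes O-GlcNAc, Dld (-0.96), a subunit of pyruvate dehydrogenase, Rabep1 (-0.95), Cep19 (-0.94) and Armc1 (-0.94). Atxn2 ranked 221 in this order and Rere 4080. The 100 genes most like Atn1 had a median GC content of 54.7%, against 49.3% over all genes compared. Of the 10 most like, 4 were also among the 10 by Spearman's rho and 5 among the 10 after correction for GC content.

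The behavior measures were taken apart from the RNA, but they are not all independent of the choice of Atn1. The component that set the groups was adopted in the study for its correlation with the light/dark and maze measures, so the slopes of Atn1 on those measures are tied to how it was chosen. The study also reported a negative correlation of its PC1 with the SIT measures, and had PC1 as a covariate in the fit that listed Atn1. The slopes on the SIT measures are therefore not wholly apart from that choice either. The measures were time and distance in the light as percentages, open-arm time and total entries in the maze, and the box:zone ratio of the SIT over 3, 5 and 10 min, which sets time beside a stranger mouse (box) against time at a distance (zone). Slopes are log2 change in level per SD of the measure, fitted with edgeR over all genes in 11 mice, or 10 at 3 min, where mouse 4 has no value. By edgeR, 0 of 8 genes had an adjusted p under 0.05 in each of the 7 measures, beside 0.00742% of all genes for time in the light, 0% for distance, open-arm time and total entries, 0.015% at 3 min, 0.0111% at 5 min and 0.0223% at 10 min. DESeq2's likelihood ratio test also called 0 of 8 in each, beside 0.0435% of all genes for time in the light, 0.0753% for distance, 0.125% for open-arm time, 0.13% for total entries, 0.47% at 3 min, 0.125% at 5 min and 0.322% at 10 min. The smallest edgeR adjusted p among the 8 was 0.534, for Atxn2 at 10 min.

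At an unadjusted p under 0.05, 2 of the 56 pairs of gene and measure passed, both at 10 min. There 2 of 8 genes passed, Atn1 and Atxn2, beside 8.05% of all genes. In the other measures 0 of 8 passed, beside 3.55% of all genes for time in the light, 5.8% for distance, 5.84% for open-arm time, 6.97% for total entries, 7.65% at 3 min and 6.56% at 5 min. The pairs share mice, and Atn1 and Atxn2 varied together, so the 2 are not separate observations.

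The 10 min box:zone ratio was 2.62 in mouse 3, far above the others, which ran from 0.495 in mouse 2 to 1.58 in mouse 8. Atn1 had a slope of -0.31 (SE 0.13, edgeR adjusted p = 0.611) and Atxn2 of -0.20 (SE 0.08, adjusted p = 0.534). The mouse with the highest ratio, mouse 3, had the lowest level of both genes, and mouse 2, with the lowest ratio, had high levels of both. Mouse 8 went the other way, with the second highest ratio and the highest level of both. Over 19 alternatives the adjusted p ran from 0.171 to 0.999 for Atn1 and from 0.0898 to 0.999 for Atxn2. DESeq2 gave adjusted p = 0.348 for Atn1 and 0.340 for Atxn2.

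Both slopes rested on mouse 3. Without it the slope was -0.05 in Atn1 (SE 0.11) and -0.06 in Atxn2 (SE 0.07), with an edgeR adjusted p = 0.999 for each, and neither passed the unadjusted threshold. Without mouse 8 they were -0.41 in Atn1 (SE 0.10, adjusted p = 0.171) and -0.27 in Atxn2 (SE 0.05, adjusted p = 0.0898). Mouse 3 also had the lowest PC1 score, -27.4, and the lowest GC slope, and with PC1 as a covariate the slopes were -0.12 (SE 0.07) and -0.11 (SE 0.06), which did not pass the unadjusted threshold. With the GC offset they were -0.25 (SE 0.11) and -0.23 (SE 0.09), and both passed it. Mouse 3 was neither the highest nor the lowest mouse in the sum of any of the 10 marker lists.

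**Figure D5:**
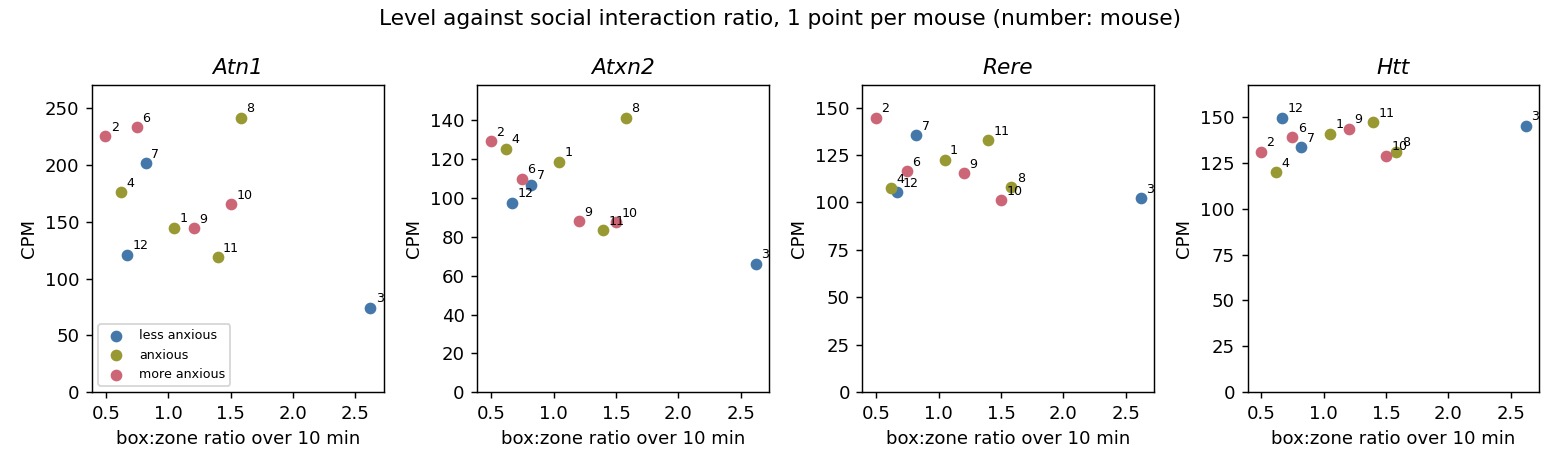
CPM of Atn1, Atxn2, Rere and Htt against the box:zone ratio over 10 min, 1 numbered point per mouse, colored by anxiety group. Mouse 3 stands alone at a ratio of 2.62 with the lowest Atn1 and Atxn2, and among the other mice the ratio ends at 1.58 in mouse 8, which has the highest level of both.

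At 10 min the slope of Rere was -0.09 (SE 0.05, adjusted p = 0.695), that of Atxn7 -0.04 (SE 0.04) and that of Atxn1 -0.01 (SE 0.04). Htt was at 0.03 (SE 0.04) and Atxn3 at 0.02 (SE 0.07), and Tbp had a slope of -0.0038 (SE 0.04). At 5 min and at 3 min the Atn1 slope was -0.23 (SE 0.14 and 0.16), and that of Atxn2 was -0.15 (SE 0.08) and -0.16 (SE 0.09). With PC1 as a covariate the Atn1 slope at 3 min turned to 0.06 (SE 0.09). Without mouse 3 the Atn1 slope was -0.01 at 5 min and -0.09 at 3 min, and without mouse 8 it was -0.40 at 5 min, past the unadjusted threshold. In the light/dark box and the maze, the Atn1 slope was -0.02 on time in the light (SE 0.14), -0.13 on distance (SE 0.14), 0.0040 on open-arm time (SE 0.15) and -0.07 on total entries (SE 0.15). None of these 4 slopes was larger than its SE. The slope on distance ranged from -0.04 without mouse 3 to -0.34 without mouse 6, and the latter passed the unadjusted threshold.

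With PC1 as a covariate, 7 of the 56 pairs had an unadjusted p under 0.05, beside 4.61% to 8.81% of all genes by measure, and the Atn1 slope on open-arm time went from 0.0040 to -0.20 (SE 0.05, edgeR adjusted p = 0.230). In that fit Atn1 also had slopes of -0.14 on distance in the light (adjusted p = 0.753) and -0.13 on total entries (adjusted p = 0.511). Atxn2 had slopes of -0.13 on open-arm time (SE 0.05) and -0.13 on total entries (SE 0.05), and Rere had -0.10 on total entries (SE 0.05) and Atxn3 -0.17 at 3 min (SE 0.07), each past the unadjusted threshold. PC1 was computed from the same counts, so this covariate takes out variation that the genes themselves share.

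Cacna1a, the P/Q-type calcium channel subunit, is another gene whose human repeat causes polyglutamine disease. Cacna1a was at 53.0, 90.9 and 79.5 CPM in less anxious mice 3, 7 and 12. It was at 71.8, 105, 125 and 106 CPM in anxious mice 1, 4, 8 and 11, and at 174, 164, 255 and 142 CPM in more anxious mice 2, 6, 9 and 10. Every more anxious mouse thus lay above every mouse of the other groups, and the log2 difference between more and less anxious mice was 1.29 (SE 0.25). Cacna1a was itself in the gene list drawn from this contrast, so this too is a description.

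Of 8 paralogs of the ataxins and TBP, 7 had enough reads to be tested, all but Tbpl2. Atxn2l, the RNA-binding paralog of ataxin-2, was at 98.5 to 147 CPM in less anxious, 149 to 191 in anxious and 179 to 239 in more anxious mice, with no overlap between the less and more anxious groups. Its log2 difference was 0.60 (SE 0.12), and it too was in the list drawn from this contrast. The log2 differences of Atxn7l1 and Atxn7l2 were 0.26 (SE 0.10) and 0.32 (SE 0.12), and those of Atxn7l3, Atxn7l3b, Tbpl1 and Atxn1l lay between -0.01 and 0.02. Atxn7l1 was also without overlap, at 28.8 to 33.3 CPM in less anxious and 33.6 to 39.6 in more anxious mice. Thus 2 of the 7 paralogs had no overlap, beside 10% of genes with a mean of at least 1 CPM. As Atxn2l was chosen through this contrast, nothing is read from that count. Against the 10 min ratio, Atxn2l had a slope of -0.21 (SE 0.08, edgeR adjusted p = 0.538), close in size to that of Atxn2. Atxn2l was the 1 of 7 paralogs with an unadjusted p under 0.05 at 10 min, beside 8.05% of all genes. At an unadjusted p under 0.05, 0 of 7 paralogs passed for time in the light, at 3 min and at 5 min (3.55%, 7.65% and 6.56% of all genes did), while Atxn2l and Atxn7l2 passed on distance (slopes -0.18, SE 0.07, and -0.11, SE 0.05, beside 5.8% of all genes), Atxn7l1 and Atxn7l2 on open-arm time (-0.10, SE 0.04, and -0.14, SE 0.05, beside 5.84%) and Atxn7l2 on total entries (-0.12, SE 0.05, beside 6.97%). None of the 7 had an edgeR adjusted p under 0.05 in any measure. The r of Atxn2l with Atn1 was 0.82, rank 282, against 0.59 and rank 1819 for Cacna1a.

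The related genes, paralogs, protein partners and repair genes were counted in lists. Over 10 lists with 89 genes, of which 88 were tested, edgeR called 0 across the groups after adjustment. At an unadjusted p under 0.05 there were 9 of 88, 7 higher and 2 lower in more anxious mice, beside 3.95% of all genes higher and 2.4% lower. DESeq2 called 3, Cacna1a, Atxn2l and Taf3, beside 0.594% of all genes. Cacna1a and Atxn2l, which were in the list drawn from this contrast, are among the 7 and the 3, so nothing is read from these counts. Among 12 partners of the atrophins, whose most abundant were Baiap2, Ehmt2 and Magi1, 0 passed the unadjusted threshold in edgeR and 0 were called by DESeq2, with a median log2 difference of -0.0090. The same counts of 0 held for the 6 genes of Capicua and its targets (Cic, Etv1 and Etv5 the most abundant, median 0.03) and for the 7 stress granule partners of ataxin-2 (G3bp2, Tardbp and Tia1, median -0.0073).

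Some genes passed the unadjusted edgeR threshold across the groups in the other lists, beside 6.35% of all genes. The groups were set from the same RNA counts, so these differences are descriptions and no test is read from them. Of 7 ubiquitin partners of ataxin-3 (Vcp, Rad23b and Stub1 the most abundant), the ubiquitin ligase gene Stub1 was higher by 0.25 (SE 0.09). Of 14 SAGA subunits beside Atxn7 (Usp22, Trrap and Kat2a), the deubiquitinase Usp22 was at -0.28 (SE 0.11). Of 14 TBP-associated factors of TFIID (Taf1, Taf10 and Taf2), Taf3 differed by 0.56 (SE 0.14), Taf10 by 0.40 (SE 0.11) and Taf12 by 0.06 (SE 0.14) between more and less anxious mice and by 0.40 (SE 0.14) between anxious and less anxious mice. Of 11 huntingtin partners (Hap1, Dctn1 and Pacsin1), F8a was at 0.42 (SE 0.15). Of 8 repeat instability and mismatch repair genes (Msh3 and Mlh3 among the most abundant), Pms1 was at -0.49 (SE 0.19). Taf3, Taf12, F8a and Pms1 are named here because they are the genes counted and not by the rule of abundance.

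Against the 10 min ratio, edgeR called 0 of the 88 listed genes after adjustment and 8 had an unadjusted p under 0.05. The 6 with higher levels at higher ratios (4.29% of all genes had such slopes) included Hdac2, Fat1, Ddx6, Taf11 and Taf13, and the 2 with lower levels (3.76% of all genes) were Atxn2l and Ube4b. DESeq2 called 1 of the 88 (0.322% of all genes), Fat1, the atypical cadherin that binds atrophin, which it also called at 5 min (0.125% of all genes). These genes, too, were named because they are the ones counted. Without mouse 3, 1.15% of all genes had higher and 1.69% lower slopes past the unadjusted threshold at 10 min. The listed genes are not counted for that fit here. The counts in the other 6 measures were between 1 and 5 of 88 at an unadjusted p under 0.05 in edgeR, beside 3.55% to 7.65% of all genes by measure.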

How the data were processed

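Amygdala mRNA of 12 mice was sequenced with single-end reads of 75 bp. The authors estimated abundance with Salmon on mm10 and deposited estimated counts, unnormalized whole numbers (0 values were not whole) for 47729 genes. The annotation release is not given in the sources used here. Names and sequences came from GENCODE M21, which held 47310 of the genes (99.1%).

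Groups and behavior were taken from the labels, and mouse 5 was left out. edgeR 4.0.16 (R 4.3.3) fitted genes with at least 10 reads in total by its robust quasi-likelihood F-test with TMM factors, with PC1 of variance-stabilized counts as covariate for the groups and no covariate for the standardized behavior measures. Benjamini-Hochberg adjusted p-values covered all genes tested. DESeq2 1.42.0 was the alternative test. CPM used TMM factors, and log2 CPM a prior count of 2. The alternatives covered size factors, filter, robust option, covariate, group coding, GC offset, ranks, mouse 5 and each mouse left out. The procedures were tested on simulated data, and repeats and figures used Python 3.11.15. Members, gene lists and tests were chosen with earlier results of these data known. The genes named were the members, Cacna1a, the paralogs, the 3 most abundant genes of each other list and the 10 most and 5 least like Atn1, and a few items that this rule covers are not reported here. Protein sequences were not used here.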

Additional observations from a re-analysis of the deposited data

How the results depend on the processing

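The Atn1 difference between more and less anxious mice stayed above 0 in each alternative run, from 0.20 with the GC offset to 0.54 without PC1. Its unadjusted edgeR p was above 0.05 in both of these and without mouse 7 or mouse 9. As Atn1 was chosen through this contrast, these values are a description and no test is read from them. Counts of called genes over the whole table depended on the fit. Across the groups edgeR called 2 genes, against 9 with no count filter, 205 with DESeq2, 1 with no robust option, 0 without PC1, 22 with the group as a number and 0 to 5 when a mouse was left out. For time in the light the count of 2 became 4 with no filter, 15 with DESeq2, 1 with no robust option, 1 with the GC offset, 0 with PC1, 0 with ranks, 1 with mouse 5 and 0 to 16 with a mouse left out. For distance the count of 0 became 26 with DESeq2 and 0 to 14 with a mouse left out. For open-arm time the count of 0 became 1 with DESeq2 size factors, 1 with no filter, 43 with DESeq2, 2 with no robust option, 1 with mouse 5 and 0 to 3 with a mouse left out. For entries the count of 0 became 45 with DESeq2 and 0 to 5 with a mouse left out. At 3 min the count of 4 became 11 with no filter, 161 with DESeq2, 2 with PC1 and 1 to 6 with a mouse left out. At 5 min the count of 3 became 7 with no filter, 43 with DESeq2, 0 with PC1, 0 with ranks, 6 with mouse 5 and 1 to 5 with a mouse left out. At 10 min the count of 6 became 10 with no filter, 111 with DESeq2, 2 with PC1, 0 with ranks and 1 to 9 with a mouse left out. Of the 56 pairs of member and measure, the 2 under an unadjusted p of 0.05 became 1 with no filter, 4 with the GC offset, 7 with PC1, 0 with ranks, 1 with mouse 5 and 0 to 5 with a mouse left out. The shares of all genes in these fits were 5.73% to 8.78%, 3.65% to 8.5%, 4.61% to 8.81%, 4.37% to 7.33%, 3.43% to 6.68% and 2.78% to 10.8%, over the measures. The 4 members above 0 became 2 to 5 with a mouse left out. Of the 10 genes most like Atn1, 4 were shared with Spearman's rho and 5 after GC correction. The cause of these changes was not tested.

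Some slopes changed sign. Atn1 on time in the light went to 0.0097 with the GC offset, 0.047 with mouse 5 and -0.29 to 0.054 with a mouse left out. Atn1 on open-arm time went to -0.20 with PC1, -0.044 with ranks and -0.11 to 0.086 with a mouse left out, and on entries to 0.021 with ranks and -0.14 to 0.070 with a mouse left out. Atn1 at 3 min went from -0.23 to 0.063 with PC1. At 10 min Atxn3 went to -0.018 with the GC offset and -0.0089 with PC1, Tbp to 0.0079 with ranks and -0.014 to 0.015 with a mouse left out, and Atxn1 to -0.057 to 0.0062. No paired analysis was possible because each mouse has 1 library and its own number, and the groups share no labelled replicate. With 3 or 4 mice per group, differences of the size seen in Rere, Htt or Tbp were within their errors.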

Other observations

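Mouse 5, which the labels place in no anxiety state, was left out above. On a CPM scale fitted to all 12 mice, its Rere level was 90.2, below the lowest of the other 11 (101). Its Tbp level was 38.2, above the highest of the others (34.7), and its Atxn1 level of 84.6 lay just above their highest (83.8). Its Atn1 level was 92.8 CPM, within the range of the others (74.5 to 242), and so were Atxn2 at 79.3, Atxn3 at 22.8, Atxn7 at 26.9 and Htt at 137.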
